A study of Mus musculus with 43 samples.

Results

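The 7 fatty acid elongase genes of the mouse, *Elovl1* to *Elovl7*, were described in a pooled CRISPR/Cas9 screen of metabolic genes in CD8+ T cells. They were chosen by gene symbol alone and made up 7 of the 2078 genes of the library. With 5 sgRNAs for each gene, they held 35 of its 10640 sgRNAs, beside 250 nontargeting sgRNAs. Every one of the 35 sgRNAs had a value in every library analysed, and none was removed by a filter.

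Elongases catalyse the first step of fatty acid elongation in the endoplasmic reticulum, in which an activated fatty acid is condensed with malonyl-CoA. A ketoreductase, a dehydratase and a trans-2-enoyl-CoA reductase then complete the cycle, and the chain leaves it longer by one acetyl unit. The members differ in the fatty acids that they accept. ELOVL1, ELOVL3 and ELOVL7 act mainly on saturated and monounsaturated chains, ELOVL6 extends palmitate to stearate, ELOVL2 and ELOVL5 act on polyunsaturated chains, and ELOVL4 makes the longest chains known in skin, brain and retina. Very long chains enter sphingolipids through ceramide synthases, and those made by ELOVL1 are known substrates of CERS2.

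The screen used OT-I T cells, which see ovalbumin through their receptor, from mice with a Cas9 knock-in. The cells were transduced with a lentiviral library that carries CD90.1 as reporter and were transferred into immunocompetent Rosa26-Cas9 mice bearing orthotopic KPC_OVA tumours, a pancreatic ductal adenocarcinoma line made to express ovalbumin. All groups share the OT-I receptor, Cas9 and the library. Starting on the day of transfer, recipients received anti-PD-1 or control IgG, and OT-I T cells positive for CD90.1 were sorted 7 days after transfer from primary tumour, lung, liver, peritoneal metastases, spleen, draining lymph nodes and nondraining lymph nodes. An aliquot from the day of transfer, never injected, was the common reference and is called T0. The measurement is the abundance of each sgRNA, relative to others of the library, in the genomic DNA of the sorted cells. It stands for how often cells with that sgRNA were recovered. It is neither a number of cells nor a measure of how much of the gene they expressed. Cutting of the gene was not measured in these libraries.

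Of 43 samples, 41 carried values, because the authors excluded 2. The 38 libraries of injected cells were 19 of anti-PD-1 and 19 of IgG. Liver anti-PD-1 had 1 library (replicate 3), liver IgG and peritoneal IgG had 2 each (replicates 2 and 3), and T0 and each other group had 3. The title of peritoneal anti-PD-1 replicate 2 names peritoneal metastasis, whereas its tissue label names spleen; it was kept by its title. Summed signal ranged from 2882460 to 4228880 at T0 and from 1788300 to 4130050 in the other libraries. No 2 libraries were identical (highest Pearson r 0.843).

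Recovery set what could be seen. A signal of at most 10 was found for 0 of 105 Elovl values at T0, for 43 of 210 (20.5%) in lung and for 24 of 700 (3.43%) in primary tumour, liver, peritoneal metastases and spleen. In the lymph nodes it was found for 329 of 420 Elovl values (78.3%), where all targeting sgRNAs had 78.2% and nontargeting sgRNAs 77.9%. Most of the library was thus not recovered from lymph nodes, whose results are given apart from those of the other organs.

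The screen's table names its sgRNAs by number only. For *Elovl1*, a gene of 8 exons on chromosome 4 (GRCm38.p6 chr4:118426874-118432953, plus strand) that encodes a protein of 279 residues, the study designed 3 guides for its later single-cell screen. They are shown because they fix where the gene was cut in that follow-up. Which of the 5 sgRNAs analysed here they match, if any, is not known. The guide is in lower case and the capitals mark the PAM, the NGG motif next to which Cas9 cuts.
Elovl1_gRNA1: ggctattggaaaagtctatgGGG
Elovl1_gRNA2: gggcagacaatccatagtagAGG
Elovl1_gRNA3: tccaaagctaccctctgatgGGG

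Each of the 3 guides had 1 exact site with an NGG PAM in the GRCm38.p6 genome. Elovl1_gRNA1 lies in exon 4 (chr4:118431110-118431129, minus strand) with its cut at 34.2% of the coding sequence. Elovl1_gRNA2 lies in exon 7 (chr4:118431655-118431674, minus strand), with the cut at 64.5%. Elovl1_gRNA3 lies in exon 3 (chr4:118430724-118430743, plus strand), with the cut at 8.57%. All 3 sites are thus coding. The closest site in any of the 6 paralogues differed from these guides by 5, 6 and 6 bases. The paralogues lie elsewhere: *Elovl2* at chr13:41182382-41220403, *Elovl3* at chr19:46131897-46135694, *Elovl4* at chr9:83778692-83806305, *Elovl5* at chr9:77917365-77984519, *Elovl6* at chr3:129532386-129638495 and *Elovl7* at chr13:108214326-108287109.

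The first comparison asked whether T cells carrying sgRNAs against each elongase were recovered more or less often in an organ than at T0. A gene's level in a library is the mean of log2(signal + 1) over its 5 sgRNAs, less the nontargeting median in the same library. A gene was called where limma gave an adjusted p of at most 0.05 over 2078 genes. In the 10 groups outside the lymph nodes, 0 of 70 Elovl tests were enriched, where 0.00481% of all gene tests were, and 2 of 70 were depleted, where 12.4% of all were. Both calls were in lung under IgG, for *Elovl2* and *Elovl5*. The share of all genes depleted was 11.5% under IgG and 11.9% under anti-PD-1 in primary tumour, 18% and 16.6% in lung, 10.8% and 6.16% in liver, 11.2% and 13% in peritoneal metastases, and 12.2% and 12.8% in spleen. Averaged over the 10 groups, 15.3% of genes were depleted and 0.0962% enriched. All 14 comparisons use the same 3 T0 libraries. As a scale, averaged over these 10 groups *Pik3cd*, a phosphoinositide kinase subunit, changed by 2.56 (adjusted p = 0.0282 by limma), *Rpl9*, a ribosomal protein gene, by -6.35, and *Polr1d*, an RNA polymerase subunit, by -5.66.

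*Elovl1* levels in primary tumour lay mostly near those before transfer. At T0 they were -0.06, -0.17 and -0.32 in replicates 1 to 3. They were -0.66, -0.32 and -0.15 in primary tumour under IgG and -0.20, -0.76 and 1.02 under anti-PD-1. The single high primary tumour value, replicate 3 of anti-PD-1, lay above all T0 values, and both tumour groups otherwise overlapped T0 or lay below it.

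The changes of *Elovl1* from T0 in primary tumour were -0.19 under IgG (SE 0.89) and 0.20 under anti-PD-1, against medians of all genes of -0.28 and -0.20. Its rank among 2078 genes was 843 under IgG and 282 under anti-PD-1, rank 1 being the most enriched. Neither passed the test (adjusted p = 1 for both by limma), and without anti-PD-1 replicate 3 the second change was -0.30.

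In liver, *Elovl1* levels were -0.11 and 0.76 under IgG and 1.94 in the only anti-PD-1 library. The last of these was higher than *Elovl1* in any other library outside the lymph nodes. The change from T0 was 0.51 under IgG (95% interval -1.49 to 2.51, rank 137) and 2.12 under anti-PD-1 (SE 1.26, 95% interval -0.41 to 4.65, rank 6). The unadjusted p was 0.098 for the second and the adjusted p 0.761, so it did not pass the test.

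The liver anti-PD-1 value has no replicate, and its error in the fit is borrowed from the other groups. It passed the threshold in 3 alternatives: with only the groups compared, where the spread came from T0 alone (2.12, adjusted p = 5.28e-05 by limma; 15.7% of all genes enriched), with library weights (2.09, adjusted p = 0.000827; 1.64%) and with the lymph nodes left out together with centring on the nontargeting mean (2.39, adjusted p = 0.0495; 0.289%). The study had already singled out *Elovl1* on these libraries, so its rank here is not independent evidence.

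The 5 *Elovl1* sgRNAs did not contribute alike to that liver value. Under anti-PD-1 the signals of s_04391 to s_04395 were 670.9, 393.8, 211.0, 387.2 and 843.0. At T0 they ranged from 93.8 to 258.9 for s_04391, from 177.5 to 340.4 for s_04392, from 299.6 to 520.0 for s_04393, from 140.3 to 293.1 for s_04394 and from 120.8 to 361.7 for s_04395. Thus 4 of them exceeded every T0 library, and s_04393, the most abundant at T0, lay below every T0 library.

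In that liver library, 10.9% of all targeting sgRNAs exceeded their 3 T0 values, and 6 of 2078 genes (0.289%) had 4 or 5 such sgRNAs. *Elovl1* was 1 of these 6, while the other elongases had between 0 and 2. The fitted changes of its sgRNAs were 3.31, 1.80, 0.11, 2.02 and 3.37 in the order of their numbers, and none was called (adjusted p = 1 for each by limma over 10640 sgRNAs).

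Under IgG the liver signals of the *Elovl1* sgRNAs were 8.88, 78.2, 373.8, 227.3 and 324.4 in replicate 2 and 145.1, 108.7, 279.9, 537.2 and 368.9 in replicate 3. Only s_04394 in replicate 3 and s_04395 in replicate 3 lay above all T0 values, and s_04392 lay below them in both libraries. Over all targeting sgRNAs, 18.6% lay above and 68.6% below their T0 values in replicate 2, and 7.71% and 73.6% in replicate 3, so a value below T0 was usual there. The 5 sgRNAs target the same gene in the same mice and are not replicates of the condition.

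Spleen gave even *Elovl1* levels under IgG and uneven ones under anti-PD-1. Under IgG the levels were 0.39, 0.41 and 0.40, all above T0, and under anti-PD-1 they were 0.96, -1.20 and 0.61. The IgG change from T0 was 0.58 (rank 34) against a median of all genes of -0.47, and the anti-PD-1 change was 0.31 (rank 102) against -0.67. Neither passed the test (adjusted p = 1 and 0.993 by limma). Without anti-PD-1 replicate 1 the second was -0.11.

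The spleen level of *Elovl1* hid unlike sgRNAs. In the IgG libraries s_04392 had signals of 273.0, 500.0 and 810.7, whereas s_04391 had 176.8, 178.5 and 37.1. Under anti-PD-1, s_04394 had 1608 in replicate 1 against 101.9 and 147.2 in the others, and s_04391 had 228.1, 1.10 and 760.2. The evenness of the IgG means was therefore not found in the single sgRNAs.

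In peritoneal metastases no difference of *Elovl1* passed the test, although its treatment groups did not overlap. How many genes of the library had groups without overlap was not counted, here or in other organs. *Elovl1* levels were 0.01 and -0.16 under IgG and -1.20, -1.52 and -1.03 under anti-PD-1. All 3 anti-PD-1 libraries lay below T0 and below IgG, among them replicate 2, whose tissue label names spleen. The changes from T0 were 0.11 (rank 227) and -1.07 (rank 1519, adjusted p = 0.999), and the difference between treatments was -1.17 (adjusted p = 0.998 by limma). That difference is a mean over 5 unlike sgRNAs, whose differences ran from -5.46 to 1.71, with 1 above 0. The lowest was that of s_04395, far below the gene value. Its IgG signals were 674.1 and 740.8, and those under anti-PD-1 were 2.12, 59.2 and 18.5.

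In lung, *Elovl1* levels were -1.84, -0.83 and -1.69 under IgG and -0.21, -2.07 and -0.81 under anti-PD-1. All but 1 of these 6 libraries lay below every T0 library. The whole library was also lower in lung: the changes of -1.27 and -0.85 stood beside medians of all genes of -1.42 and -1.07. They did not pass the test (adjusted p = 0.333 and 0.636 by limma). Of 30 *Elovl1* values in lung, 8 were at most 10.

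Averaged over the 10 groups outside the lymph nodes, *Elovl1* changed by 0.05 (rank 110), against a median of all genes of -0.55. It lay above the median gene in 9 of the 10 groups, with peritoneal anti-PD-1 as the exception, and its level exceeded the median of all genes in 14 of the 26 libraries, against 0 of 3 at T0. The sign of 0.05 is not fixed: it was -0.54 on values as deposited. By sgRNA, s_04394 lay above the median sgRNA in 10 of 10 groups, s_04393 in 8, s_04395 in 7, s_04391 in 6 and s_04392 in 5.

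The second comparison set *Elovl1* against each paralogue within the same library, which removes a shift equal for all genes of a library. It does not remove unequal recovery of sgRNAs, as found in lung and lymph nodes. Over the 10 groups outside the lymph nodes its change exceeded those of *Elovl2* by 0.95 (SE 0.75), *Elovl3* by 0.72, *Elovl4* by 0.80 and *Elovl5* by 0.92. Against *Elovl6* and *Elovl7* the difference was -0.10 for both. None passed the test, with adjusted p between 0.858 and 0.957 by limma over 2077 differences.

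Group by group, 0 of the 84 differences between *Elovl1* and a paralogue from T0 passed the threshold. Against all other genes, 8.25% of such differences were in favour of *Elovl1* and 0.0481% against it. In liver anti-PD-1 the differences were 2.13 from *Elovl2*, 3.41 from *Elovl3* (adjusted p = 0.136 by limma), 2.83 from *Elovl4*, 2.97 from *Elovl5*, 1.02 from *Elovl6* and 1.10 from *Elovl7*. The median difference from all other genes there was 2.38, so those from *Elovl2*, *Elovl6* and *Elovl7* lay below it, and none of the 6 was called. With library weights 17 of the 84 were called, where 29.8% of all such differences were, and with only the groups compared 14, where 22.8% were.

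Outside the lymph nodes 3 of the 7 genes had mean changes just above 0 and the other 4 lay below it. Where 0 lies depends on the centring, which shifts all genes of a library alike, so none of these 3 signs is fixed. Averaged over the 10 groups, *Elovl6* changed by 0.14 (rank 66), *Elovl7* by 0.14 (rank 68) and *Elovl1* by 0.05, while *Elovl3* changed by -0.67, *Elovl4* by -0.76, *Elovl5* by -0.88 and *Elovl2* by -0.90. The SE of single-gene estimates was large beside these gaps, and none of the 7 passed the test (adjusted p from 0.868 to 0.980 by limma). *Elovl3*, an elongase of saturated chains as are *Elovl1* and *Elovl7*, was among the lower 4.

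By change from T0, *Elovl6*, the palmitate elongase, and *Elovl7* lay above the median gene in 9 of 10 groups each, as did *Elovl1*. *Elovl3* did so in 5 groups and *Elovl2*, *Elovl4* and *Elovl5* in 4. By level, with no T0 subtracted, *Elovl6* and *Elovl7* exceeded the median of all genes in 23 and 22 of 26 libraries. Their levels less that median were already 0.004 to 0.298 and -0.066 to 0.065 at T0, against -0.581 to -0.262 for *Elovl1*. In lung under anti-PD-1, *Elovl6* levels were 1.31, 0.81 and 1.67 and *Elovl7* levels were 0.66, 0.26 and 2.05, against T0 ranges of 0.27 to 0.50 and 0.10 to 0.26.

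Of these 6 lung values, 5 lay above all T0 values, and *Elovl7* in replicate 2 lay within them, in an organ where the median gene changed by -1.07. *Elovl6* changed by 0.89 there and *Elovl7* by 0.79, ranks 11 and 16, and neither passed the test (adjusted p = 0.656 and 0.638 by limma). A signal of at most 10 was found in 1 of 30 lung values for each of these genes, against 11 of 30 for *Elovl5*. By sgRNA, s_07976 of *Elovl6* lay above the median sgRNA in 10 of 10 groups, s_07977 in 9, s_07979 in 8, s_07980 in 7 and s_07978 in 3. For *Elovl7* it was s_06574 in 9, s_06573 in 8, s_06571 and s_06575 in 7 and s_06572 in 6. How many sgRNAs of the library reached such counts was not computed.

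*Elovl2* and *Elovl5*, the elongases of polyunsaturated chains, were depleted in lung under IgG, where 18% of all genes were. *Elovl2* levels were -2.93, -2.74 and -2.05, against 0.32, 0.25 and 0.21 at T0, a change of -2.83 (SE 0.99, adjusted p = 0.037 by limma, rank 1716). *Elovl5* levels were -4.08, -2.92 and -4.10, against -0.38, -0.21 and -0.25, a change of -3.42 (SE 1.05, adjusted p = 0.0127, rank 1775). In both genes every lung IgG library lay far below every T0 library. The median change of all genes there was -1.42.

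These 2 calls were near the threshold. *Elovl2* kept its direction but not its call when any 1 of 5 libraries was left out (adjusted p from 0.09 to 0.122 by limma without lung IgG replicate 1 or 2 or any T0 library), and *Elovl5* lost its call without lung IgG replicate 1 (adjusted p = 0.0548). Both were lost with centring on the nontargeting mean (adjusted p = 0.231 and 0.0687). In lung, 26.7% of *Elovl2* values and 36.7% of *Elovl5* values were at most 10, against 27.3% of all targeting sgRNAs; the part of this recovery in the calls was not tested.

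The largest fall in each gene was that of 1 sgRNA, but in *Elovl5* the others fell as well. In lung under IgG, 0 of 5 *Elovl5* sgRNAs changed by more than 0 (from -6.97 to -0.59), and 1 lay above the median sgRNA. Of the *Elovl2* sgRNAs (from -7.03 to 0.96), 1 was above 0 and 2 above the median sgRNA. s_04397 of *Elovl2* had lung IgG signals of 1.20, 0.61 and 0, against 425.9, 375.6 and 233.0 at T0. s_05822 of *Elovl5* had 0.79, 0.40 and 0, against 295.2, 237.3 and 329.1. Both were missing from all 3 lung IgG libraries and present in all 3 T0 libraries. In the same libraries s_04396 of *Elovl2* had 583.3, 449.8 and 129.2, against 217.4 to 341.2 at T0. s_05821 of *Elovl5* had 110.5, 170.9 and 34.6, each below its T0 range of 193.6 to 276.9. The sgRNAs of the same gene were thus found at unlike levels.

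Of 350 sgRNA tests outside the lymph nodes, 4 were depleted, where 4.82% of all sgRNA tests were, and 0 were enriched, where 0% of all were. The 4 were s_04397 (-7.03, adjusted p = 0.0198 by limma), s_00637 of *Elovl3* (-5.29, adjusted p = 0.0345) and s_05822 (-6.97, adjusted p = 8.73e-05), all in lung under IgG, and s_07037 of *Elovl4* (-6.58, adjusted p = 0.0198) in spleen under IgG. They came from 4 genes, with 1 sgRNA each. Leaving out 1 library ended the call of s_04397 (lung IgG replicate 2 or any T0 library, adjusted p up to 0.0652), of s_00637 (lung IgG replicate 1 or 2 or any T0 library, up to 0.166) and of s_07037 (any spleen IgG or T0 library, up to 0.0732), but not that of s_05822. None of the 70 tests of *Elovl1* sgRNAs over all 14 groups was called.

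Under anti-PD-1 the same lung sgRNAs were recovered. s_05822 of *Elovl5* had signals of 424.8, 126.8 and 217.5 there, and its change between treatments in lung was 7.20 (adjusted p = 0.0014 by limma), with no overlap between the groups. As 12 sgRNAs (0.113%) were called higher in that contrast, this sgRNA was among few. At the gene level the treatments differed by 2.50 for *Elovl5* and by 1.96 for *Elovl2* (adjusted p = 0.930 for both), and lung anti-PD-1 replicate 2 was low for both, at -3.17 and -2.34.

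*Elovl4*, the elongase of the longest chains, had unlike levels in the spleen groups. Its levels were -2.35, -1.26 and -1.31 under IgG and -0.12, 0.36 and 0.55 under anti-PD-1, with T0 between -0.23 and 0.02. All 3 IgG libraries lay below those of T0 and anti-PD-1, and how many genes of the library did likewise was not counted. The treatment difference was 1.90 (rank 12 of 2078) and did not pass the test (adjusted p = 1 by limma). That difference is a mean over 5 unlike sgRNAs, whose differences ran from -0.24 to 7.80, with 4 above 0. The highest was that of s_07037, far above the gene value. It had signals of 1.06, 0.64 and 0 under IgG and 158.8, 745.2 and 241.6 under anti-PD-1. s_07036 had 65.1, 642.2 and 465.2 under IgG.

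*Elovl3*, an elongase known from skin and brown fat, had no call outside the lymph nodes. Its levels lay between -2.23 in lung IgG replicate 2 and 0.97 in primary tumour anti-PD-1 replicate 2, with T0 from 0.29 to 0.49. In the single liver anti-PD-1 library its level was -0.87, the lowest *Elovl3* value in liver, while *Elovl1* there had its highest. All 5 *Elovl3* sgRNAs in that library had lower signals than at T0, from 7.97 to 164.6, as had 73.5% of all targeting sgRNAs. After centring, 1 of the 5 changes was above 0, at 0.21.

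Liver was compared with the other tumour-bearing sites, that is primary tumour, lung and peritoneal metastases. Over both treatments *Elovl1* was higher in liver by 1.83 (SE 0.72, rank 8, unadjusted p = 0.0144, adjusted p = 0.999 by limma). Under anti-PD-1 alone the difference was 2.69 (SE 1.15, rank 11, adjusted p = 1). The median of all genes was 0.36 and 0.45 in these contrasts. With library weights both passed the test, at 1.77 (adjusted p = 0.0115) and 2.63 (adjusted p = 0.00435), where 0.77% and 1.44% of all genes were called higher. The authors corrected the deposited values for batch effects between organs, and the part of that step in differences between organs was not tested. For the 6 paralogues the first difference ranged from 0.01 to 0.77.

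In the lymph nodes, 5 of 28 Elovl tests against T0 were enriched, where 19.7% of all gene tests were, and none was depleted. Draining lymph nodes under IgG held 3 of them, where 35% of all genes were called: *Elovl4* (3.29, adjusted p = 0.0314 by limma), *Elovl6* (5.39, adjusted p = 0.000404) and *Elovl7* (3.70, adjusted p = 0.00239). *Elovl3* was called in the draining nodes of anti-PD-1 recipients (3.89, adjusted p = 0.0078), where 28.2% of all genes were, and *Elovl6* in nondraining lymph nodes under IgG (3.42, adjusted p = 0.0297), where 6.74% were. *Elovl1* was not called in any lymph node group, including nondraining lymph nodes under anti-PD-1 (2.57, rank 395, adjusted p = 0.0569), where 8.95% were. Without replicate 1 of the group in question it was called in draining nodes under IgG (2.39, adjusted p = 0.0415) and anti-PD-1 (2.61, adjusted p = 0.0261) and in nondraining nodes under anti-PD-1 (2.58, adjusted p = 0.0424). The *Elovl3* call was lost without draining anti-PD-1 replicate 2 (2.33, adjusted p = 0.089). That of *Elovl4* was lost without draining IgG replicate 3 (1.08, adjusted p = 0.601) or any T0 library, and that of *Elovl6* in nondraining nodes without IgG replicate 2 (2.24, adjusted p = 0.149) or 3 or any T0 library. The calls of *Elovl6* and *Elovl7* in draining nodes under IgG were kept whichever of their 6 libraries was left out.

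The direction of these lymph node calls comes from the centring, since the median of the nontargeting sgRNAs there was between 0 and 1.26 on the log2 scale, against 7.61 to 8.22 at T0. It ran with the replicate number, from 1.16 to 1.26 in replicates 1, from 0.75 to 0.82 in replicates 2 and from 0 to 0.44 in replicates 3, in both node types. On values as deposited all 5 changes were negative, from -1.93 to -4.02, and 99.5% of all lymph node gene tests were depleted. Relative to the median of all genes, which was 2.08 in draining and 1.37 in nondraining nodes under IgG, *Elovl6* lay above the median gene in both of these groups under every alternative that kept all lymph node libraries, by 2.23 to 5.46 and by 1.39 to 3.78. *Elovl1* lay below it in draining nodes under IgG, with 1.65.

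*Elovl6* was the one elongase that passed the gene-level test between treatments in lymph nodes. Its levels in draining lymph nodes were 3.32, 5.98 and 7.99 under IgG and 0.08, -0.02 and 1.67 under anti-PD-1. The groups did not overlap. Anti-PD-1 was lower by 5.19 on the log2 scale (log2 change -5.19, SE 0.98, adjusted p = 0.00278 by limma), the last rank of 2078 genes, in a contrast in which 0.385% of genes were called lower.

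Of 49 Elovl tests of anti-PD-1 against IgG over the 7 organs, this was the only call, where 0.0894% of all gene tests were called higher and 0.0619% lower. The *Elovl6* call remained when each of the 6 libraries was left out (adjusted p from 0.000189 to 0.0303), and under every centring. It was lost with only the groups compared (adjusted p = 0.993). In nondraining lymph nodes the *Elovl6* levels were 2.18, 6.17 and 3.05 under IgG and 2.44, 2.08 and 3.93 under anti-PD-1, which overlapped (difference -0.98, adjusted p = 0.771), in a contrast with 0.241% of genes called higher and 0.0481% lower.

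The draining lymph node difference stood in several *Elovl6* sgRNAs. s_07979 had signals of 752.4, 2063 and 1544 under IgG and 1.91, 1.21 and 9.64 under anti-PD-1 (-8.48, adjusted p = 9.6e-05 by limma). s_07976 had 786.8, 1624 and 4.31 against 1.45, 0.42 and 0 (-7.09, adjusted p = 0.0102). Of 15 *Elovl6* values under IgG, 9 were above 10, against 1 of 15 under anti-PD-1, where s_07977 had 140.3 in replicate 3. Over all targeting sgRNAs the share above 10 was 18.5%, 17.6% and 39.8% in these IgG libraries and 12.4%, 21.1% and 43.2% in those of anti-PD-1, so the treatments overlapped in overall recovery. s_07979 was recovered in all 9 other lymph node libraries, and its T0 signals were 826.5, 830.2 and 392.9.

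The difference between *Elovl1* and *Elovl6* in the same contrast was 5.34 (SE 1.09, adjusted p = 0.0107 by limma), the only 1 of 42 differences between *Elovl1* and a paralogue across treatments that was called, where 2.03% of all such differences favoured *Elovl1*. Without draining IgG replicate 3 it did not pass the test (4.80, adjusted p = 0.0893), nor with library weights (4.34, adjusted p = 0.221). *Elovl1* levels were -0.02, 1.79 and 2.63 in draining nodes under IgG and 0.01, 3.73 and 1.12 under anti-PD-1, which overlapped.

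*Elovl1* in lymph nodes rested on few sgRNAs. Of its 60 lymph node values 10 were above 10, and 7 of these were s_04393. In nondraining nodes under anti-PD-1, s_04393 had signals of 8601, 1881 and 16.8, and s_04392 had 694.9 in replicate 3. The largest of these, in replicate 1, was the only *Elovl1* value above 10 in that library. The change of s_04393 there was 7.99 (adjusted p = 0.0766 by limma).

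At the sgRNA level, 6 of 140 lymph node tests against T0 were enriched, where 2.58% of all were, and 3 of the 6 were s_07979 of *Elovl6*. The others were s_07976 of *Elovl6* and s_06574 of *Elovl7* in draining nodes under IgG and s_00640 of *Elovl3* in draining nodes under anti-PD-1. Between treatments, 1 of 245 tests was higher under anti-PD-1, where 0.614% of all were, and 4 were lower, where 0.767% were. The 1 was s_05822 in lung, and the 4 lay in draining nodes: s_07976, s_07979, s_06574 of *Elovl7* (-5.88, adjusted p = 0.0391 by limma) and s_07039 of *Elovl4* (-6.43, adjusted p = 0.0476). Of these between-treatment calls, those of s_05822 and s_07979 were kept when single libraries were left out, while others were lost. That of s_07976 was lost without IgG replicate 2 (adjusted p = 0.0744), that of s_06574 without any IgG library or anti-PD-1 replicate 1 or 2 (up to 0.188), and that of s_07039 without IgG replicate 2 or 3, any anti-PD-1 library or the peritoneal library with unlike labels (up to 0.183). Against T0, s_07976 was lost without draining IgG replicate 2 (0.0845) and s_00640 without draining anti-PD-1 replicate 2 (0.103), and both without any 1 T0 library.

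*Elovl3*, by contrast, was not higher under IgG in draining nodes, with levels of 3.49, -0.13 and 4.33 under IgG and 1.72, 7.44 and 3.76 under anti-PD-1, which overlapped (difference 1.75, adjusted p = 0.456 by limma). In replicate 2 under anti-PD-1, 4 of its 5 sgRNAs had signals between 1033 and 1292. *Elovl7* levels there were 3.55, 3.98 and 4.16 under IgG and 0.73, 1.81 and 2.96 under anti-PD-1. These did not overlap, which was not counted over all genes, and the difference of -2.06 did not pass the test (adjusted p = 0.233 by limma).

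Recovery in lymph nodes ran with abundance before transfer. Counting the lymph node libraries in which an sgRNA had a signal above 10, the 35 Elovl sgRNAs gave Pearson r = 0.608 and Spearman rho = 0.638 with their mean T0 signal, and all 10390 targeting sgRNAs gave 0.528 and 0.514. These are descriptions across sgRNAs, which share libraries and are not independent. In 5 equal bins of T0 signal, from the lowest to the highest, all targeting sgRNAs were recovered in a mean of 1.40, 1.97, 2.35, 3.07 and 4.29 of 12 libraries.

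Elovl sgRNAs with high lymph node recovery were among the abundant ones. s_07979 of *Elovl6*, with a mean T0 signal of 683 (percentile 93.1 of all sgRNAs), was recovered in 9 libraries, and s_04393 of *Elovl1* (444, percentile 76.1) in 7. In 5 of the 7 genes, *Elovl1*, *Elovl2*, *Elovl4*, *Elovl6* and *Elovl7*, no sgRNA was recovered in more libraries than the one most abundant at T0, ties included. How many genes of the library did likewise was not counted. s_04398 of *Elovl2* was more abundant than s_07979 or s_04393, at 751, and was recovered in 4. s_05823 of *Elovl5* had a mean T0 signal of only 88.5 (percentile 0.27) and was recovered in 3, the most of its gene. The part of T0 abundance in the lymph node calls was not tested.

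No Elovl gene differed between 2 organs of the same treatment in the 20 pairs outside the lymph nodes, where 0.0481% of all genes did in 1 pair and none in the rest, nor between draining and nondraining nodes, where 2.12% did under IgG and 0.722% under anti-PD-1. Averaged over organs, anti-PD-1 and IgG differed by 0.41 for *Elovl1* (SE 0.37, adjusted p = 0.905 by limma). For the paralogues this mean ranged from -0.56 for *Elovl6* to 0.77 for *Elovl2*, and none passed the test.

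The other enzymes of fatty acid synthesis, elongation and use were taken as 5 lists. The library held 5 of 7 partners of the elongation cycle, 3 of 8 desaturases, 6 of 6 ceramide synthases, 7 of 7 genes of fatty acid synthesis and 3 of 6 of peroxisomal import and oxidation. Over the 10 groups outside the lymph nodes, 6 of their 240 tests were depleted, where 12.4% of all gene tests were, and 0 enriched, and all 6 were in lung. Their median changes over these groups were -0.55 for the partners, -0.14 for desaturases, -0.26 for ceramide synthases, -1.75 for fatty acid synthesis and -0.50 for the peroxisomal genes, beside -0.55 over all genes.

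In lung under IgG, *Oxsm*, the mitochondrial ketoacyl synthase, changed by -3.34 (adjusted p = 0.0177 by limma) and *Slc27a2*, an acyl-CoA synthetase of very long chains, by -2.76 (adjusted p = 0.0484). In lung under anti-PD-1, where 16.6% of all genes were depleted, *Tecr*, the reductase that ends the elongation cycle, changed by -2.94 (adjusted p = 0.0429). *Scd1*, the stearoyl-CoA desaturase, changed by -4.11 (adjusted p = 0.00166). *Mcat* (-3.35, adjusted p = 0.0206) and *Mecr* (-4.66, adjusted p = 0.000745) belong to mitochondrial fatty acid synthesis.

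The partner enzymes of the cycle thus had 1 call, for *Tecr*. *Cers2*, the ceramide synthase that uses the products of ELOVL1, had changes from -1.17 to 0.19 over the 10 groups and was not called. *Fasn*, the cytosolic fatty acid synthase, had changes from -2.73 to -0.45, and *Acaca*, which makes malonyl-CoA, from -2.61 to -0.91, below 0 in every group and without a call.

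Over all 41 libraries, with each library centred on the median of all genes, the genes whose values were most like those of *Elovl1* were *Cd36*, a fatty acid transporter (Pearson r = 0.515), *Slc16a3*, a lactate exporter (0.497), and *Setd7*, a lysine methyltransferase (0.476). Among 2077 genes, the paralogues ranked 299 for *Elovl2*, 687 for *Elovl3*, 995 for *Elovl4*, 1671 for *Elovl5*, 1079 for *Elovl6* and 1017 for *Elovl7*. Without the lymph nodes the 3 most like *Elovl1* over 29 libraries were others, *Pcyox1* (0.507), *Mocs1* (0.507) and *Asah2*, a ceramidase (0.484). There *Elovl5* ranked 135 (r = 0.266) and the other paralogues from 508 to 1461. The likeness thus depended on the lymph node libraries. These values are descriptions over libraries that share organs and T0.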

How the data were processed

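The integrated sgRNA was sequenced from genomic DNA of sorted OT-I T cells. The deposited signal per sgRNA and library was made by the authors: reads were counted with MAGeCK, normalized to the 250 nontargeting sgRNAs and corrected with ComBat for batch effects between organs, which bears on every comparison between organs or with T0. Its other settings are not given in the sources used here. Values other than 0 were not whole numbers, so read depth is unknown and neither a count test nor a counting interval was possible.

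From the signal, log2(signal + 1) was averaged over a gene's 5 sgRNAs, and each library was then centred by its nontargeting median. limma 3.58.1 (R 4.3.3) fitted 41 libraries with 1 mean per group, genes (2078), sgRNAs (10640) and differences between *Elovl1* and each other gene (2077) apart, with Benjamini-Hochberg adjustment over each table and a threshold of 0.05. Samples were grouped by their titles as biological replicates. The paper reports more animals per treatment than any group has libraries, without stating how many mice each library holds. The p-values thus measure the spread between libraries, pooled over all groups. That spread was unequal: for *Elovl1* the SD was 0.13 at T0, 0.26 in primary tumour under IgG and 1.91 in draining nodes under anti-PD-1. A pooled p-value can be too small for groups with wide spread and too large for those with narrow spread. Sequencing was done in 3 runs that the labels do not assign to libraries.

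The named genes are the 7 Elovl genes, members of the 5 lists past the threshold outside lymph nodes, *Pik3cd*, *Rpl9* and *Polr1d* as a scale, and the 3 genes most like *Elovl1*; *Pcyox1*, *Mocs1*, *Asah2*, *Cers2*, *Fasn* and *Acaca* were named after their values were seen. The members and lists were chosen with earlier results of these data known, and the signal of 10 that counts as recovery was set after seeing the values. The alternatives tried were log2(signal + 10), the median of the sgRNAs, 3 other centrings, the lowest 10% of sgRNAs left out, shared lowest values set to 0, the replicate block, only the groups compared, lymph nodes left out, library weights and each library left out. Positions are from RefSeq, GRCm38.p6, and guide sequences are those of the study's design; sequences of the screen's own sgRNAs were not analysed here. The scripts were tested on simulated data.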

Additional observations from a re-analysis of the deposited data

Results flagged for a closer look

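Results were marked where anti-PD-1 and IgG differed within an organ by a test of that difference. No group held more than 3 libraries, so no library was tested for standing apart from its group. In draining nodes *Elovl6* was lower under anti-PD-1 than IgG by a log2 change of -5.19, and its sgRNAs s_07979 and s_07976 by -8.48 and -7.09. The difference between *Elovl1* and *Elovl6* in that contrast was 5.34. In the same nodes s_06574 of *Elovl7* changed by -5.88 and s_07039 of *Elovl4* by -6.43. In lung, s_05822 of *Elovl5* was higher under anti-PD-1 by 7.20, with signals near 0 in all 3 IgG libraries.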

How the results depend on the processing

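Depth could not be assessed, 1 library stood for liver anti-PD-1, and lymph node signs follow the centring. Leaving that library out gives no value, and settings without lymph nodes give none for lymph nodes. The leave-one-out results for single sgRNAs were added after seeing the data. By these batch-corrected values replicate numbers did not clearly pair the libraries. Deviations of same-numbered libraries had a median r of -0.05 over 248 pairs, and 8 of 40 libraries correlated best with their own number. Different-numbered libraries had a median r of 0.02 over 494 pairs. However, an r over 0.1 was more frequent among same-numbered pairs, with 39 of 248 against 40 of 494. Nontargeting medians in lymph nodes nevertheless ran with the number, and the part of the batch correction in this check was not tested. With the replicate block the mean *Elovl1* change outside lymph nodes was -0.0128 and that in peritoneal IgG -0.0113, *Elovl1* in nondraining anti-PD-1 nodes passed the test (2.57, adjusted p = 0.0416 by limma), and no count of calls moved by over 1.5 times. The cause was not tested for any value below.

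With log2(signal + 10), 1 Elovl gene and 2 sgRNAs were depleted outside lymph nodes, where 5.46% of all sgRNA tests were. Against T0, 1 *Elovl1* difference from a paralogue was called, where 8.58% of all such differences were. The mean difference from *Elovl7* was 0.0327. With the median of the sgRNAs, 1 Elovl gene and 2 pathway tests were depleted outside lymph nodes. In lymph nodes 0 Elovl genes were enriched, where 0.493% of all gene tests were, and 1 difference was called, where 6.68% of all were. *Elovl1* changed by 0.0414 in primary tumour IgG, 0.70 in lung anti-PD-1 and -0.40 in peritoneal IgG, and differed from *Elovl6* by 0.15 and from *Elovl7* by 0.24.

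On values as deposited, 5 Elovl genes and 22 pathway tests were depleted outside lymph nodes (18.9% of all gene tests), and 0 genes and 0 sgRNAs were enriched in them. *Elovl1* changed by -0.18 in primary tumour anti-PD-1, -0.42 in liver IgG, -0.32 in peritoneal IgG, -0.24 in spleen anti-PD-1 and -0.54 on average outside lymph nodes. In draining nodes it changed by -5.66 under IgG and -5.38 under anti-PD-1, and in nondraining nodes by -6.53 and -4.81. *Elovl3* in draining nodes under anti-PD-1 changed by -3.29, and in draining nodes under IgG *Elovl4* changed by -4.02, *Elovl6* by -1.93 and *Elovl7* by -3.61; *Elovl6* in nondraining nodes under IgG changed by -3.92, s_00640 by -0.81 and s_07976 by -0.67.

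Centred by the all-sgRNA median, 1 Elovl gene and 3 pathway tests were depleted outside lymph nodes. In lymph nodes 8 Elovl tests were enriched, where 25.5% of all gene tests were. *Elovl1* changed by 0.18 in primary tumour IgG. With the nontargeting mean, 0 Elovl genes and 2 sgRNAs were depleted outside lymph nodes, where 3.79% of all sgRNA tests were. In lymph nodes 1 gene and 3 sgRNAs were enriched, where 0.517% of all gene and 0.416% of all sgRNA tests were. *Elovl1* changed by -0.69 in draining nodes under IgG, -0.32 under anti-PD-1 and -0.83 in nondraining nodes under IgG. Without the lowest 10% of sgRNAs, 0 Elovl genes, 1 sgRNA and 2 pathway tests were depleted, where 0.024% of all sgRNA tests were. Of all gene tests outside lymph nodes, 13% were depleted with log2(signal + 10), 8.91% with the median of the sgRNAs, 11.3% and 12.4% with these 2 centrings and 1.05% without the lowest 10% of sgRNAs. With shared lowest values set to 0 the mean *Elovl1* change was -0.031.

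With only the groups compared, outside lymph nodes 3 Elovl genes were enriched and 11 depleted, 9 sgRNAs were enriched and 16 depleted, and 6 pathway tests were enriched and 63 depleted, where 1.87% and 23.8% of all gene tests and 2.02% and 10.7% of all sgRNA tests were; 2 genes were enriched in lymph nodes, 0 differed between treatments, 14 paralogue differences were called, and *Elovl1* in liver anti-PD-1 was 2.12 (adjusted p = 5.28e-05 by limma). Of all lymph node gene tests, 8.47% were enriched with only the groups compared. With lymph nodes left out, 4 genes, 7 sgRNAs and 24 pathway tests were depleted, where 17.6% of all gene and 5.92% of all sgRNA tests were. In that setting 4 differences were called, where 17.6% of all were. With the nontargeting mean as well, 2 Elovl genes were enriched, where 0.419% of all gene tests were, and *Elovl1* in liver anti-PD-1 was 2.39. With library weights, 1 gene and 5 sgRNAs were enriched outside lymph nodes, where 0.399% of all gene and 0.331% of all sgRNA tests were. Depleted there were 6 genes, 12 sgRNAs and 67 pathway tests (23.4% of all gene and 12.7% of all sgRNA tests). In lymph nodes 10 genes were enriched (31%), and 17 differences were called (29.8% of all). *Elovl1* was 2.09 in liver anti-PD-1 and 1.77 and 2.63 against the other sites under both treatments and anti-PD-1.

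Leaving out each library in turn, Elovl genes depleted outside lymph nodes ranged from 0 to 2 and those enriched in them from 3 to 9. The share of all genes called was not computed for each of these fits. With all libraries, 12.4% of all gene tests were depleted outside lymph nodes and 19.7% enriched in them. *Elovl1* ranged from -0.298 to 0.594 in primary tumour anti-PD-1 (lowest without replicate 3), from -0.111 to 0.967 in spleen anti-PD-1 (lowest without replicate 1) and from -0.0228 to 0.111 on average outside lymph nodes (lowest without T0 replicate 3), and its difference from *Elovl7* there from -0.196 to 0.0066 (highest without liver IgG replicate 2).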
